A study of Mus musculus with 8 samples.

Results

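Newborn mouse skin that had lost the retinoblastoma protein pRb, with or without p53, was set against newborn skin that had kept pRb. The comparison takes 8 of the 8 microarrays of the study, 4 arrays on each side. The pRb-deficient side holds 2 double-null arrays (genotype pRb-/-;p53-/-) and 2 pRb-null arrays (pRb-/-;p53+/+). The pRb-intact side holds 2 p53-null arrays (pRb+/+;p53-/-) and 2 control arrays, whose alleles the labels do not spell out. All mice were newborns of the FVB strain, each array was hybridized with whole-skin RNA pooled from 3 animals of 1 genotype, and the genes were inactivated somatically in stratified epithelia, which leaves the other cells of the skin outside the targeted tissue. The sources used here do not name the promoter that drove the inactivation. Of 12394 genes, 660 (5.33%) had 4 arrays of one side entirely above the 4 of the other, and these genes are described here: 379 (3.06%) were higher and 281 (2.27%) lower in all 4 pRb-deficient arrays. That choice was made from the same values, so the count itself is a description and not a test.

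pRb binds E2F transcription factors and holds back the genes that a cell needs to copy its DNA. In the epidermis it also helps basal keratinocytes to leave the cell cycle as they move up and mature into the cornified layer. Whole newborn skin contains, besides epidermis, hair follicles that are still forming, dermis, subcutaneous fat, vessels, immune cells and a sheet of skeletal muscle. In such bulk RNA, fewer cells of a type and less RNA per cell cannot be told apart.

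Each deposited value is a standardized score: every probe set has mean 0 and SD 1 over the 8 arrays, so scores carry no expression level and no fold change. A difference is the mean of the 4 pRb-deficient scores minus the mean of the 4 pRb-intact scores, in SD units of that gene, and cannot exceed 1.87 in size. Values after ± are standard errors (SE) from limma, an adjusted p is Benjamini-Hochberg adjusted over all genes, and a gene passed the test where it was under 0.05. Because no levels are left, the skin label could not be checked against the abundance of keratins. Arrays of the same genotype correlated with each other at r from 0.118 to 0.337 across probe sets, and arrays of different genotypes at −0.388 to 0.093. The median score of an array ran from −0.16 to 0.23, and the median difference over all genes was 0.11, which became 0.02 when each array's median was set to 0. Among the 64 control probe sets of the array, 5 (7.81%) were higher in all 4 pRb-deficient arrays and 0 lower, with mean scores lowest in the control arrays (−0.69 and −0.37). The female transcript Xist scored −1.57 and −1.50 in double-null and 0.68 and 0.80 in pRb-null arrays, against 0.58 and 0.60 in p53-null and 0.65 and −0.23 in control arrays. The Y-linked gene Uty scored 1.15 and 1.51 in double-null and −0.68 and −0.72 in pRb-null arrays, against −0.72 and −1.17 in p53-null and 0.73 and −0.09 in control arrays. Xist was thus lowest and Uty highest in double-null arrays, and the part of the animals' sex in any result was not tested. Of the 4 sex chromosome genes, 0 separated pRb-deficient from pRb-intact arrays.

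Rb1 itself was read by 1 probe set, with scores of −0.55 and −1.90 in double-null and −0.71 and 0.44 in pRb-null arrays, against 0.50 and 0.22 in p53-null and 1.20 and 0.80 in control arrays. The second pRb-null array lay between the p53-null scores, so the sides overlapped, and the difference of −1.36 ± 0.461 (SE, adjusted p = 0.37) did not pass the test. Where its probes lie with respect to the deleted exons is not known here, so it does not check the labels.

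In all, 6 genes (0.0484%) passed the test, 1 higher and 5 lower, and 2 higher and 3 lower passed with array medians set to 0. The largest of these changes was in Tnnc1, the troponin C of slow and cardiac muscle, which scored −0.40 and −0.42 in double-null and −1.14 and −1.24 in pRb-null arrays, against 1.39 and 1.33 in p53-null and 0.20 and 0.28 in control arrays. It was lower in every pRb-deficient array and fell by 1.60 ± 0.037 (SE, adjusted p = 0.022). Zcchc9, a zinc finger gene, scored −1.21 and −1.08 in double-null and −0.24 and −0.39 in pRb-null arrays, against 0.07 and −0.03 in p53-null and 1.46 and 1.43 in control arrays, and fell by 1.46 ± 0.056 (SE, adjusted p = 0.046). Tnmd, the tendon membrane protein tenomodulin, scored −1.52 and −1.65 in double-null and 0.20 and 0.35 in pRb-null arrays, against 0.45 and 0.55 in p53-null and 0.82 and 0.80 in control arrays, and fell by 1.31 ± 0.058 (SE, adjusted p = 0.046). For Zcchc9 the control arrays stood highest, and for Tnmd the double-null arrays stood far below the rest. The sides overlapped for the other 3 genes. Slurp1, a secreted epidermal protein, scored 0.98 and 1.00 in double-null and 0.27 and 0.19 in pRb-null arrays, against −1.46 and −1.61 in p53-null and 0.37 and 0.26 in control arrays, and rose by 1.22 ± 0.052 (SE, adjusted p = 0.046). Its p53-null arrays were far below all others, and the pRb-null and control arrays overlapped. Rxylt1, a glycosyltransferase that acts on dystroglycan, scored −0.29 and −0.24 in double-null and −1.05 and −0.89 in pRb-null arrays, against 1.56 and 1.53 in p53-null and −0.26 and −0.36 in control arrays, and fell by 1.24 ± 0.048 (SE, adjusted p = 0.046). Here the p53-null arrays were the only high ones. Gprc5d, an orphan receptor of the hair follicle, scored −1.13 and −1.16 in double-null and 0.70 and 0.69 in pRb-null arrays, against −0.69 and −0.65 in p53-null and 1.09 and 1.15 in control arrays. It fell by 0.45 ± 0.019 (SE, adjusted p = 0.046), a small shift between arrays that lay close together within each genotype. These calls rest on the agreement of 2 arrays per genotype: with 1 array left out the count was 0 to 2, the replicate block and limma's moderated test each called 0, and before adjustment 853 genes (6.88%) had p under 0.05 with a positive and 734 (5.92%) with a negative difference. Of the 660 genes that separated the sides, 521 had an unadjusted p under 0.05 and 3 were called.

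The separated genes reached differences from 1.06 to 1.84 in size. The distance from the lowest array of the higher side to the highest array of the lower side, called the gap here, had a median of 0.27 and reached 1.32. At the edge of the rule, Mbl1 (gap 0.00013) lay just inside, and Sdr42e1 (gap 0) and Actrt2 (gap −6.3e-05) just outside. Of the 660 genes, 251 had further probe sets. Of those 372 probe sets, 265 (71.2%) had the same sign, 40 also separated the sides the same way and 4 the opposite way. Over all genes, 57.5% of the 7999 further probe sets had the sign of the one used. Counted over every probe set, 649 of 22690 (2.86%) were higher and 547 (2.41%) lower in all 4 pRb-deficient arrays. Leaving out 1 array, which can only add genes, gave 504 to 760 higher genes and 386 to 532 lower genes, with 760 without double-null replicate 1 and 532 without pRb-null replicate 2. In 11 genes every one of 2 or more probe sets was higher, and in 7 every one was lower.

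The 10 genes with the widest gap on the higher side included a pair made by keratinocytes of the epidermis. Rptn, repetin, a precursor protein of the cornified envelope, scored 1.20 and 1.16 in double-null and 0.53 and 0.73 in pRb-null arrays, against −0.88 and −0.74 in p53-null and −0.80 and −1.20 in control arrays. All 4 pRb-deficient arrays stood far above the others, with double-null arrays on top, and the difference was 1.81 ± 0.119 (SE, adjusted p = 0.063). Its 2 further probe sets, at 0.66 and 0.76, overlapped between the sides. Trex2, an exonuclease of keratinocytes, scored 0.89 and 1.35 in double-null and 0.73 and 0.61 in pRb-null arrays, against −1.11 and −1.19 in p53-null and −0.76 and −0.50 in control arrays, a difference of 1.79 ± 0.136 (SE, adjusted p = 0.068). Both genes had their 2 highest scores in double-null arrays. Enzymes of metabolism were also in this group. Gpd1, which makes glycerol 3-phosphate for fat synthesis, scored 1.14 and 0.51 in double-null and 0.74 and 1.15 in pRb-null arrays, against −0.56 and −0.57 in p53-null and −1.32 and −1.08 in control arrays, with a difference of 1.77 ± 0.197 (SE, adjusted p = 0.11). Of its 3 further probe sets, 2 separated the sides too. Abhd12, a lipid hydrolase, differed by 1.76 ± 0.256 (SE, adjusted p = 0.15), Pon3, a lactonase, by 1.76 ± 0.241 (SE, adjusted p = 0.15), and Ide, the insulin-degrading enzyme, by 1.78 ± 0.093 (SE, adjusted p = 0.06). Further probe sets of Ide (0.87, 0.64 and 1.31) and Abhd12 (1.07) had the same sign and overlapped, as did those of Sod3 and Fzd4. The rest were the extracellular superoxide dismutase Sod3 (1.79 ± 0.126, adjusted p = 0.063), the Wnt receptor Fzd4 (1.73 ± 0.283, adjusted p = 0.17), the membrane protein Tmem45a (1.73 ± 0.213, adjusted p = 0.12) and the muscle calcium store Casq1 (1.79 ± 0.244, adjusted p = 0.15). None of the 10 passed the test.

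On the lower side, the widest gap of all belonged to Meis2, a homeobox transcription factor of developing tissues, which scored −0.99 and −1.09 in double-null and −1.01 and −0.59 in pRb-null arrays, against 0.94 and 0.94 in p53-null and 0.73 and 1.07 in control arrays. The sides stood apart by 1.322, and the difference was −1.84 ± 0.137 (SE, adjusted p = 0.068). Other transcriptional regulators were Nr2f1, an orphan nuclear receptor that scored −0.75 and −0.64 in double-null and −1.03 and −1.14 in pRb-null arrays, against 1.42 and 0.56 in p53-null and 1.02 and 0.55 in control arrays (−1.78 ± 0.249, adjusted p = 0.15), and Max, the DNA-binding partner of Myc, which scored −0.77 and −0.78 in double-null and −0.96 and −1.09 in pRb-null arrays, against 0.85 and 1.41 in p53-null and 0.45 and 0.88 in control arrays (−1.80 ± 0.180, adjusted p = 0.1). For Nr2f1 and Max the pRb-null arrays were the lowest, while for Meis2 pRb-null and double-null arrays overlapped. Secreted proteins were Igfbp2, which binds insulin-like growth factors (−1.80 ± 0.253, adjusted p = 0.15), Serping1, the inhibitor of complement C1 (−1.73 ± 0.353, adjusted p = 0.23), and Ecrg4 (−1.80 ± 0.242, adjusted p = 0.14). The other 4 were Ccng2, an unconventional cyclin (−1.77 ± 0.257, adjusted p = 0.15), the embryonic myosin Myh3 (−1.77 ± 0.121, adjusted p = 0.063), the chaperone partner Fkbp5 (−1.71 ± 0.202, adjusted p = 0.12) and Cstf2t, an RNA 3′-end processing factor (−1.71 ± 0.360, adjusted p = 0.23). Further probe sets of Ccng2 (−0.27) and Fkbp5 (−0.35) had the same sign and overlapped.

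**Figure D1:**
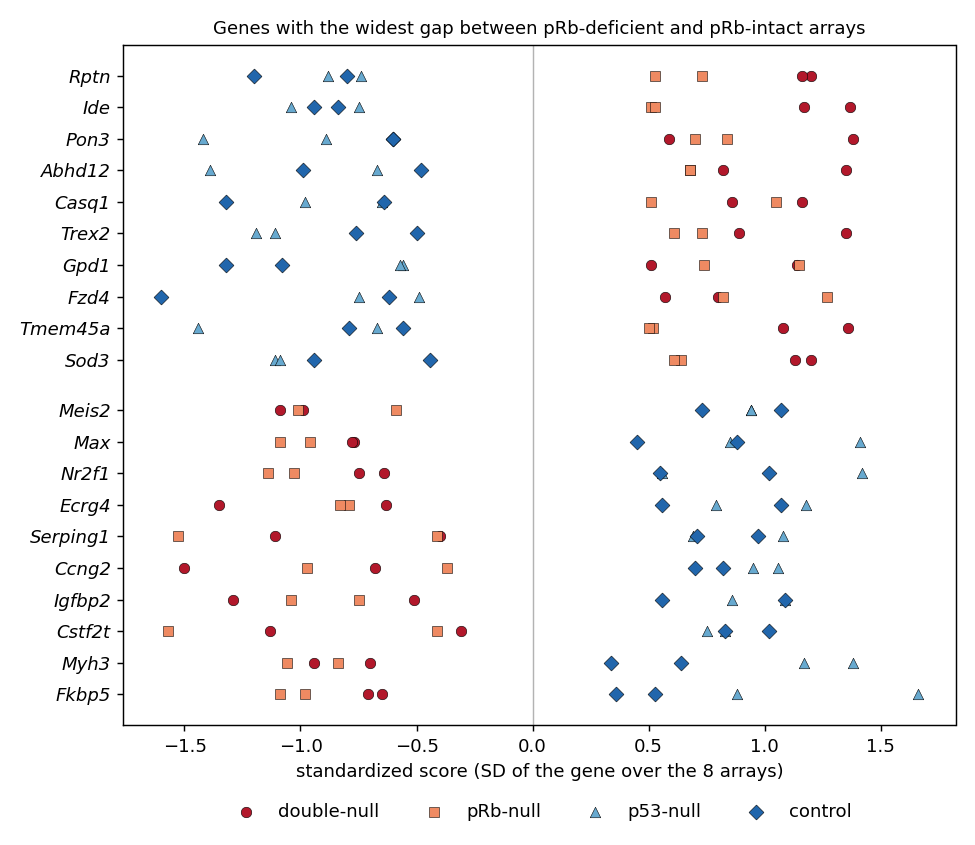
Standardized scores (x axis, in SD of the gene over the 8 arrays) of the 10 genes with the widest gap on each side, with 1 point per array and the genotype given by colour and shape. In the upper 10 genes every double-null and pRb-null array lies above every p53-null and control array, and in the lower 10 genes below, with Rptn (gap 1.264) and Meis2 (gap 1.322) the widest.

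Genes read by several probe sets that all separated the sides were few. On the higher side the 5 with the widest narrowest gap were Car4 and Car3, carbonic anhydrases, the apolipoprotein Apoa4, the matrix protein Thbs1 and the peptidase Blmh. Apoa4 scored 1.19 and 1.31 in double-null and 0.68 and 0.37 in pRb-null arrays, against −1.05 and −0.89 in p53-null and −0.98 and −0.64 in control arrays, and its 2 probe sets differed by 1.78 and 1.52. For Car3, an abundant protein of fat and muscle, they differed by 1.62 and 1.73. The lower side held Gaa (−1.50 and −1.46), the lysosomal enzyme that breaks down glycogen, Mmp2 (−1.56 and −1.72), a matrix metalloproteinase, Slc45a3 (−1.56 and −1.42), Rps28 and Krtap5-1. Rps28 had 3 probe sets, at −1.66, −1.55 and −1.59.

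E2F target and DNA replication genes, which pRb holds back, had a share of separated genes not far above the background. Of 70 measured members, 4 (5.71%) were higher in all 4 pRb-deficient arrays, against 3.06% of all genes, and 2 (2.86%) were lower, against 2.27%. None passed the test. Before adjustment, 7 had p under 0.05 with a positive (over all genes 6.88%) and 2 with a negative difference (over all genes 5.92%). The median difference was 0.34 beside 0.11 over all genes. The 2 members with the smallest p among these, Rpa1 (1.48 ± 0.207) and Mcm6 (1.33 ± 0.194), named after their values were seen, overlapped between the sides. Ccne1, the cyclin that starts S phase, scored 1.46 and 0.46 in double-null and 0.62 and 0.65 in pRb-null arrays, against −1.45 and −1.21 in p53-null and −0.52 and −0.01 in control arrays, and differed by 1.60 ± 0.284 (SE, adjusted p = 0.19). Rrm2, a subunit of ribonucleotide reductase, scored 1.89 and 0.38 in double-null and 0.19 and 0.31 in pRb-null arrays, against −0.44 and −0.26 in p53-null and −1.65 and −0.41 in control arrays. Its gap was 0.454, beside a median of 0.27 for the separated genes, and 1 double-null and 1 control array stood far from the rest. The difference was 1.38 ± 0.492 (SE, adjusted p = 0.39). Of its 2 further probe sets, the one at 1.14 overlapped and the one at 1.25 also separated the sides, by a gap of 0.02. Mcm5, a subunit of the replicative helicase, scored 0.02 and −0.08 in double-null and 1.94 and 0.90 in pRb-null arrays, against −0.28 and −1.15 in p53-null and −0.43 and −0.92 in control arrays. Here the pRb-null arrays were the high ones, the double-null arrays lay just above the other side, and the difference was 1.39 ± 0.361 (SE, adjusted p = 0.3). Prim1, a primase subunit, was the other member above all pRb-intact arrays, at 1.52 ± 0.356. The lower members were Rpa3 (−1.57 ± 0.510), a part of the single-strand binding complex, and Pold3 (−1.43 ± 0.595), a polymerase subunit whose further probe set had the opposite sign. The sliding clamp Pcna scored 0.80 and 1.17 in double-null and 0.86 and 0.11 in pRb-null arrays, against 0.30 and −0.45 in p53-null and −1.30 and −1.50 in control arrays, so both of its control arrays were low, but its sides overlapped.

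The list's median was −0.21 for double-null minus p53-null and 1.01 for pRb-null minus control, against 0.09 and 0.04 over all genes. The 2 comparisons share no array. Mean scores of the list were 0.01 and −0.19 in double-null and 0.36 and 0.45 in pRb-null arrays. They were 0.19 and −0.06 in p53-null and −0.69 and −0.06 in control arrays, so the control arrays differed from each other. The difference between these comparisons, the interaction of pRb and p53, had a median of −1.07 over the list, against 0.02 over all genes. Its unadjusted p was under 0.05 in 8 of 70 members (over all genes 9.8%). The averaged median of 0.34 became 0.60 with control replicate 2 left out, 0.22 with control replicate 1 left out and 0.17 with the mean of each gene's probe sets. Separated higher members numbered 7 without pRb-null replicate 1, without p53-null replicate 1 or without p53-null replicate 2. The members were searched for E2F sites because they share this kind of control. In the 250 bases before the gene start, 22.2% of 72 promoters of the list held TTTCCCGC, TTTGGCGC, TTTCGCGC or TTTGCCGC on either strand, against 1.86% of all 32851 promoters in RefSeq (GRCm38.p6). Of the promoters of all genes higher in the 4 pRb-deficient arrays, 1.96% held a site, and 3.72% of those of the lower genes. Among the 4 higher members, only Mcm5 held one, as 2 overlapping matches that read in opposite directions and are shown in capitals, at chr8:75109336-75109387 on the plus strand.
Mcm5: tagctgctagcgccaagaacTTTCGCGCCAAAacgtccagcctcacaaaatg

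Mitosis genes, which act later in the cycle, had a median of −0.36 over 60 members. Only 1 member (1.67%, against 3.06% of all genes) was higher in all 4 pRb-deficient arrays and 1 (1.67%, against 2.27%) lower. Bub1b, a spindle checkpoint kinase, scored −0.65 and −0.63 in double-null and −1.31 and −0.62 in pRb-null arrays, against −0.09 and 1.03 in p53-null and 0.66 and 1.61 in control arrays, with a difference of −1.60 ± 0.404 (SE, adjusted p = 0.29). Ckap2, a microtubule-binding protein, was the higher one at 1.41 ± 0.604. Before adjustment, 0 had p under 0.05 with a positive (over all genes 6.88%) and 6 with a negative difference (over all genes 5.92%). The 2 genotype comparisons pointed apart: the median was −1.10 for double-null minus p53-null and 0.39 for pRb-null minus control. The interaction had a median of −1.62, and its unadjusted p was under 0.05 in 15 of 60 members (over all genes 9.8%). Without double-null replicate 2 the averaged median was −0.22. Among the 21 pocket protein, cyclin D and CDK inhibitor genes, 0 separated the sides in either direction. The smallest p there was that of Cdkn1c, the CDK inhibitor p57, with scores of −0.46 and −0.71 in double-null and −0.58 and −0.82 in pRb-null arrays, against 1.73 and 1.36 in p53-null and −0.65 and 0.15 in control arrays (−1.29 ± 0.235, adjusted p = 0.2). Its p53-null arrays were high, and the first control array lay among the pRb-deficient ones. The list's median was −0.45, and it was −0.03, −0.04, −0.15 and −0.22 without p53-null replicate 1, double-null replicate 2, control replicate 1 and pRb-null replicate 1. Of 32 p53 target genes, Pmaip1, the apoptosis inducer Noxa (1.61 ± 0.429, adjusted p = 0.3), was higher on all 4 pRb-deficient arrays and Ccng2 lower. That is 3.12% each way, near the 3.06% and 2.27% of all genes, and the further probe set of Ccng2, at −0.27, overlapped.

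Genes of fat cells had the largest share of separated members on the higher side among the lists of 10 or more genes. Of 23 adipocyte markers, 8 (34.8%) were higher in all 4 pRb-deficient arrays, against 3.06% of all genes, and 0 were lower. None passed the test over all genes, 16 had an unadjusted p under 0.05 on the higher side (over all genes 6.88%) and 1 on the lower side (over all genes 5.92%), and the median difference was 1.30. Cidec, a protein that enlarges lipid droplets, scored 0.79 and 1.01 in double-null and 0.94 and 0.69 in pRb-null arrays, against −1.45 and −1.28 in p53-null and −0.35 and −0.35 in control arrays. Every pRb-deficient array was high, the p53-null arrays were lowest, and the difference was 1.72 ± 0.092 (SE, adjusted p = 0.06). Lipe, the hormone-sensitive lipase that frees fatty acids, scored 1.14 and 1.21 in double-null and 0.32 and 0.77 in pRb-null arrays, against −1.22 and −1.28 in p53-null and −0.44 and −0.49 in control arrays (1.71 ± 0.115, adjusted p = 0.063). Retn, the adipocyte hormone resistin, scored 1.04 and 1.33 in double-null and 0.73 and 0.33 in pRb-null arrays, against −1.22 and −1.22 in p53-null and −0.35 and −0.64 in control arrays (1.72 ± 0.142, adjusted p = 0.077). Its p53-null arrays were again the lowest. Pck1, which feeds glycerol synthesis in fat, differed by 1.64 ± 0.145 (SE, adjusted p = 0.083), although its further probe set went the other way at −0.67. The remaining 4, named here to complete the count, were the fatty acid carrier Cd36 (1.63 ± 0.204), the triglyceride synthase Dgat2 (1.63 ± 0.304), the hormone Adipoq (1.56 ± 0.128) and the droplet coat protein Plin4 (1.51 ± 0.146). Ucp1, the uncoupling protein of brown fat, overlapped between the sides, with scores of 1.35 and 1.12 in double-null and −1.01 and −1.06 in pRb-null arrays, against 0.53 and 0.59 in p53-null and −0.78 and −0.74 in control arrays. It was high in the 4 arrays without p53 and low in the 4 with it.

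The mean score of the adipocyte list was 0.80 and 0.46 in double-null and 0.61 and 0.36 in pRb-null arrays, against −0.93 and −0.94 in p53-null and −0.16 and −0.20 in control arrays. All pRb-deficient arrays were above all pRb-intact ones. The median was 2.12 for double-null minus p53-null and 0.75 for pRb-null minus control, and 17 of 23 members were higher in both comparisons, where 29.3% of all genes were. With 1 array left out the averaged median stayed between 1.23 and 1.48. Whether more fat tissue was sampled or fat cells held more of these RNAs was not tested.

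**Figure D2:**
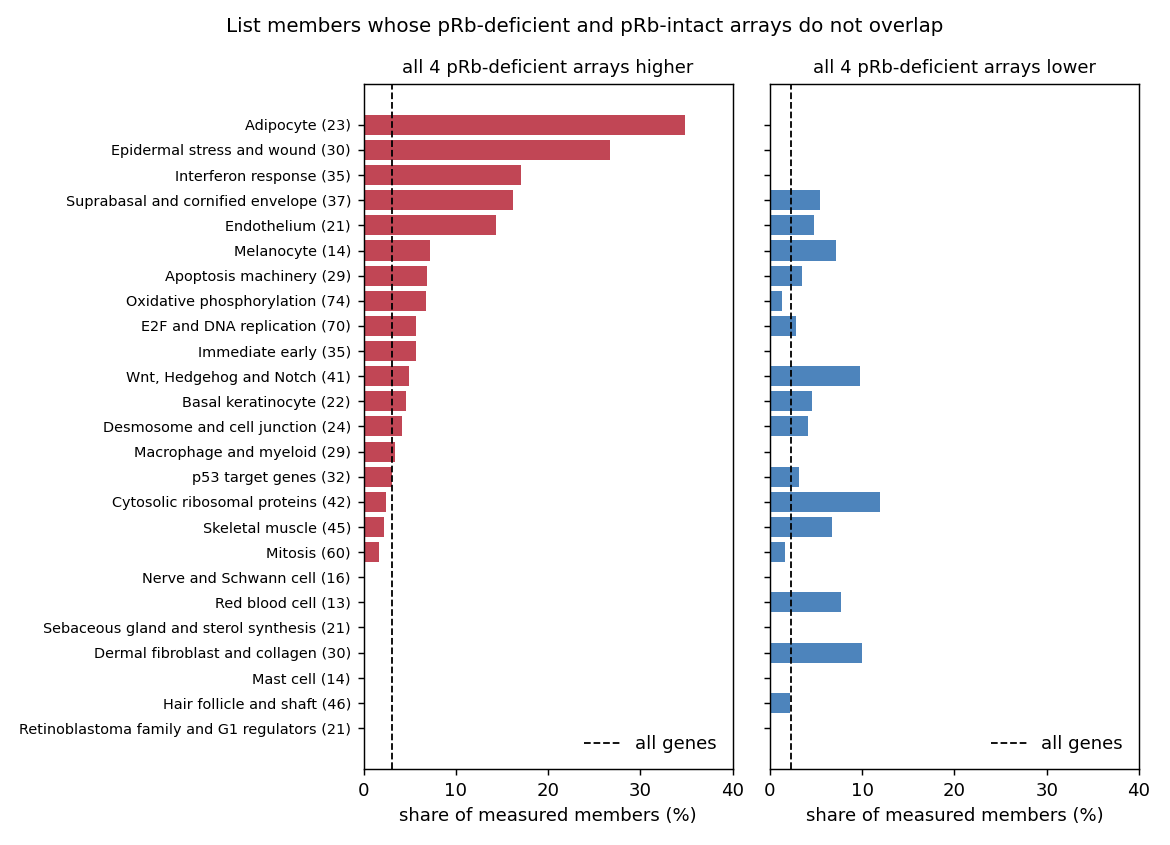
Share of the measured members of each list of 10 or more genes (y axis, number of members in brackets) whose 4 pRb-deficient arrays all lay above (left) or all below (right) the 4 pRb-intact arrays. Dashed lines mark the share over all genes, 3.06% and 2.27%, and adipocyte markers (34.8%), epidermal stress genes (26.7%) and interferon response genes (17.1%) stand highest on the left.

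Epidermal wound and inflammation genes had the next share. Of 30 such genes, 8 (26.7%) were higher in all 4 pRb-deficient arrays, against 3.06% of all genes, and 0 lower, against 2.27%. Of these 30, 15 had an unadjusted p under 0.05 on the higher side (over all genes 6.88%) and 1 on the lower side (over all genes 5.92%), none passed the test over all genes, and the median difference was 0.94. Where array medians were set to 0, 5 members separated the sides. Krt16, the keratin that wounded epidermis switches on, scored 1.50 and 1.38 in double-null and 0.33 and 0.07 in pRb-null arrays, against −0.90 and −0.70 in p53-null and −0.94 and −0.74 in control arrays. Double-null arrays were highest and pRb-null arrays lay just above zero, with a difference of 1.64 ± 0.101 (SE, adjusted p = 0.063). Ccl20, a chemokine made by keratinocytes, scored 1.02 and 1.80 in double-null and 0.29 and 0.09 in pRb-null arrays, against −0.94 and −0.63 in p53-null and −0.93 and −0.70 in control arrays (1.60 ± 0.224, adjusted p = 0.15). Ereg, epiregulin, a ligand of the EGF receptor, differed by 1.64 ± 0.185 (SE, adjusted p = 0.11), and the cytokine Il1b by 1.70 ± 0.368 (SE, adjusted p = 0.24). To complete the count, the others were Cxcl2 (1.47 ± 0.272), the IL-36 cytokine Il1f9 (1.46 ± 0.114), Il1a (1.40 ± 0.527) and Ptgs2 (1.39 ± 0.171), the inducible cyclooxygenase. The list's mean scores were 0.77 and 0.76 in double-null and 0.05 and 0.10 in pRb-null arrays, against −0.66 and −0.52 in p53-null and −0.22 and −0.28 in control arrays. All pRb-deficient arrays were above all pRb-intact ones, the double-null arrays by the most. The median was 1.43 for double-null minus p53-null and 0.35 for pRb-null minus control, a contrast not tested for the list. Immune cells of the skin also make several of these cytokines. Of 29 macrophage and myeloid markers 1 (3.45%) was higher on all 4 arrays, the chemokine receptor Ccr2 (1.37 ± 0.461). Their mean scores were 1.04 and 0.77 in double-null and −0.48 and −0.46 in pRb-null arrays, against −0.20 and 0.06 in p53-null and −0.42 and −0.31 in control arrays, and their part in the wound list was not tested. The 2 further probe sets of Ccr2, at 1.17 and 0.09, overlapped between the sides.

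The suprabasal and cornified envelope list held members of both kinds. Of 37, 6 (16.2%, against 3.06% of all genes) were higher and 2 (5.41%, against 2.27%) lower in all 4 pRb-deficient arrays. The median difference was 0.44, and 0.68 without double-null replicate 2. Before adjustment, 9 had p under 0.05 with a positive (over all genes 6.88%) and 4 with a negative difference (over all genes 5.92%), and Slurp1 alone passed the test. The list's mean scores were 0.39 and 0.09 in double-null and 0.10 and 0.35 in pRb-null arrays, against −0.33 and −0.38 in p53-null and −0.13 and −0.08 in control arrays. Of 7 measured small proline-rich proteins, which are cross-linked into the cell envelope, 3 separated the sides, and Sprr1a (−0.31 ± 0.150), Sprr2f (0.81 ± 0.455), Sprr2i (0.77 ± 0.662) and Sprr3 (0.71 ± 0.589) overlapped. Sprr1b scored 1.01 and 1.23 in double-null and 0.61 and 0.72 in pRb-null arrays, against −1.01 and −0.81 in p53-null and −1.32 and −0.42 in control arrays (1.78 ± 0.237, adjusted p = 0.14). The double-null arrays were highest. Sprr2d differed by 1.75 ± 0.141 (SE, adjusted p = 0.076) and Sprr2h by 1.73 ± 0.203 (SE, adjusted p = 0.12). These genes are similar in sequence and their probes may cross-hybridize, so single Sprr members are uncertain. Casp14, the protease of the granular layer, differed by 1.72 ± 0.322 (SE, adjusted p = 0.2), and the desmosomal cadherin Dsc1 by 1.63 ± 0.275 (SE, adjusted p = 0.18). The lower pair, named after their values were seen, were the late envelope proteins Lce1i (−1.54 ± 0.109) and Lce1g (−1.41 ± 0.445), whose p53-null arrays were highest. Early differentiation keratins did not separate the sides: Krt1 differed by 0.44 ± 0.583 (SE, adjusted p = 0.78) and Krt10 by 0.29 ± 0.655 (SE, adjusted p = 0.87). Of 22 basal keratinocyte genes, Cav1 (1.51 ± 0.297) was higher and Trp63 (−1.54 ± 0.403) lower in all 4 arrays, and the 2 further probe sets of Trp63 had the opposite sign, at 0.96 and 0.87. The basal list's median of −0.40 was −0.88 without control replicate 1, 0.04 without control replicate 2 and 0.06 with the mean of probe sets, and without p53-null replicate 1 or double-null replicate 2 it was −0.16 or −0.20.

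The AP-1 site TGANTCA, through which stress and differentiation signals reach epidermal promoters, was searched on both strands. It occurred in the 250 bases before the start in 6.75% of all promoters, in 7.28% of those of all higher genes and in 2.97% of those of all lower genes. Of 32 promoters of the cornified list 28.1% held it, and of 25 promoters of the stress list 24%. Among the higher separated members, it was found in 3 of 4 cornified promoters and in 1 of 6 stress promoters (16.7%). Sequences around the matches of the separated members are shown with the site in capitals, for Sprr1b at chr3:92438864-92438910 on the minus strand, for Sprr2d at chr3:92338927-92338973 on the plus strand, for Sprr2h at chr3:92385467-92385513 on the plus strand and for Il1a at chr2:129309973-129310004 on the minus strand (GRCm38.p6, RefSeq).
Sprr1b: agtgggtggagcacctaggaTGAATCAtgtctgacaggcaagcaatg
Sprr2d: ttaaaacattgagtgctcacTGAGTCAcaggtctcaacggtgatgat
Sprr2h: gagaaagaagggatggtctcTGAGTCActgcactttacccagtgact
Il1a: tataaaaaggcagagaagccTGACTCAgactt
All 3 Sprr genes lie on chromosome 3, and a match describes the sequence and says nothing of binding.

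Interferon response genes formed the next list. Of 35 members, 6 (17.1%) were higher in all 4 pRb-deficient arrays, against 3.06% of all genes, and 0 lower. Of these 35, 12 had an unadjusted p under 0.05 on the higher side (over all genes 6.88%) and 0 on the lower side, none passed the test, and the median difference was 0.95. Without control replicate 1, 12 members separated the sides. Ifit3, an antiviral protein, scored 0.40 and 0.28 in double-null and 1.42 and 1.07 in pRb-null arrays, against −0.56 and −1.63 in p53-null and −0.22 and −0.76 in control arrays. Its pRb-null arrays were highest, and the difference was 1.58 ± 0.315 (SE, adjusted p = 0.22). Gbp3, a GTPase of antimicrobial defence, scored 1.10 and 1.23 in double-null and 1.06 and −0.08 in pRb-null arrays, against −1.21 and −0.53 in p53-null and −1.09 and −0.48 in control arrays, where the second pRb-null array was far below the other 3 of its side (1.65 ± 0.365, adjusted p = 0.25). Psmb8, an immunoproteasome subunit, differed by 1.56 ± 0.305 (SE, adjusted p = 0.22). Rsad2, the antiviral enzyme viperin, differed by 1.43 ± 0.537 (SE, adjusted p = 0.4), and its 2 further probe sets went the other way at −0.52 and −0.39. The transcription factor Irf9 (1.56 ± 0.271) and the GTPase Iigp1 (1.35 ± 0.118) complete the count. The list's mean scores were 0.48 and 0.98 in double-null and 0.24 and −0.03 in pRb-null arrays, against −0.50 and −0.50 in p53-null and −0.15 and −0.51 in control arrays, so the sides did not overlap. Of 8 measured MHC class II genes, which present antigens on immune cells, H2-Ab1 (1.58 ± 0.318, adjusted p = 0.23) and H2-DMa (1.65 ± 0.316, adjusted p = 0.21) were higher in all 4 arrays, a share of 25% against 3.06% of all genes. H2-Eb1 went the other way, at −1.18 ± 0.406 with overlapping sides. The 2 further probe sets of H2-Ab1, at 1.04 and 1.10, overlapped too.

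The interferon-stimulated response element, searched as 2 copies of GAAA with any 2 bases between them on either strand, was present in 36.8% of 38 promoters of the interferon list, in 2.98% of all promoters, in 2.8% of those of all higher genes and in 0.372% of those of all lower genes. Among the members that separated the sides, 3 of 7 promoters, from 5 genes, held it. Matches, which read as TTTC on the strand printed, are in capitals for these 3. In Gbp3 a pair of matches overlaps. They lie at chr19:34583353-34583436 on the plus strand for Ifit3, at chr12:26456543-26456592 on the minus strand for Rsad2 and at chr3:142559979-142560034 on the plus strand for Gbp3.
Ifit3: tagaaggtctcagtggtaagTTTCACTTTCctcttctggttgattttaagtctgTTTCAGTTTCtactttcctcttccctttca
Rsad2: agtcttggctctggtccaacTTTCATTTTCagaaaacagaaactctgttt
Gbp3: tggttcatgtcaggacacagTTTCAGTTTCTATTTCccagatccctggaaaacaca

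**Figure D3:**
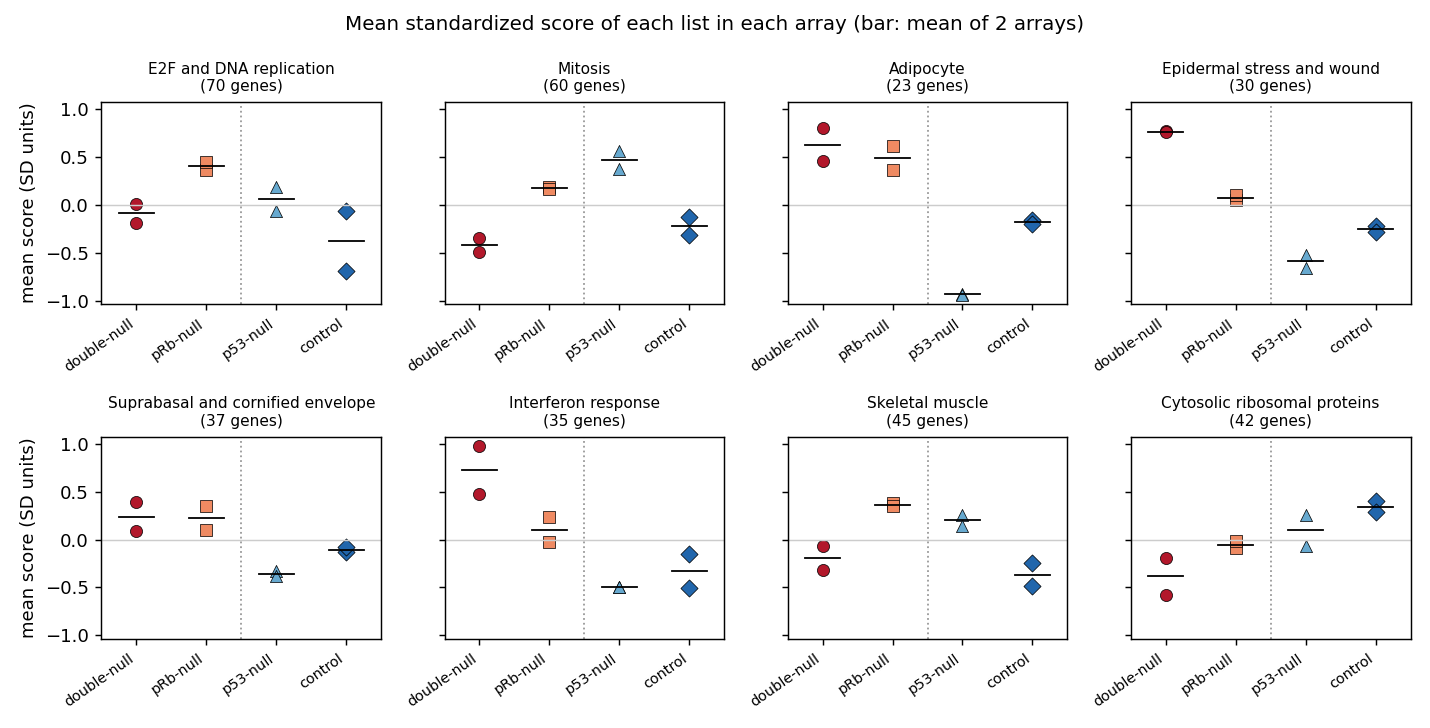
Mean standardized score over the members of 8 lists (y axis, SD units) in each of the 8 arrays, with 1 point per array, a bar at the mean of the 2 arrays of a genotype and a dotted line between pRb-deficient and pRb-intact genotypes. The adipocyte, wound, cornified and interferon lists have all 4 pRb-deficient arrays above the others, whereas the mitosis list has its highest points in p53-null and its lowest in double-null skin.

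Muscle genes held separated members of both directions. Of 45 measured members, 1 (2.22%, against 3.06% of all genes) was higher and 3 (6.67%, against 2.27%) lower in all 4 pRb-deficient arrays. On the higher side 11 had an unadjusted p under 0.05 (over all genes 6.88%) and on the lower side 8 (over all genes 5.92%), and the median difference was 0.46. The 3 lower ones were isoforms of embryonic and slow fibres. Myh3, the embryonic myosin heavy chain, scored −0.70 and −0.94 in double-null and −1.06 and −0.84 in pRb-null arrays, against 1.38 and 1.17 in p53-null and 0.34 and 0.64 in control arrays. Tnnt1, the slow troponin T, scored −1.15 and −1.07 in double-null and −0.52 and −0.67 in pRb-null arrays, against 1.23 and 1.27 in p53-null and 0.11 and 0.81 in control arrays, a difference of −1.71 ± 0.181 (SE, adjusted p = 0.11). With Tnnc1 they form the 3 members below all pRb-intact arrays, and the slow troponin I Tnni1 (−1.38 ± 0.113), the embryonic troponin T Tnnt2 (−1.37 ± 0.174) and the myogenic factor Myog (−1.29 ± 0.297) were lower at an unadjusted p under 0.05. Other slow or embryonic muscle genes, also looked up after values were seen, went both ways and overlapped between the sides. The embryonic light chain Myl4 differed by −0.87 ± 0.133 and the slow myosin Myh7 by −0.33 ± 0.439, against 0.80 ± 0.487 for Myoz2 and 1.20 ± 0.539 for Chrng. Casq1, the calcium store of fast muscle, scored 0.86 and 1.16 in double-null and 1.05 and 0.51 in pRb-null arrays, against −0.65 and −0.98 in p53-null and −0.64 and −1.32 in control arrays. All 4 pRb-deficient arrays were high. The muscle creatine kinase Ckm scored −0.11 and 0.16 in double-null and 1.36 and 1.19 in pRb-null arrays, against 0.19 and −0.10 in p53-null and −1.50 and −1.18 in control arrays, with the pRb-null arrays high and the control arrays low. Its sides overlapped, as did those of every listed muscle gene with a positive difference except Casq1. Genes of fast fibres, looked up after values were seen, ranged widely: the actinin Actn3 differed by 1.42 ± 0.201 and the calcium pump Atp2a1 by 1.19 ± 0.235, against 0.41 ± 0.556 for the fast troponin I Tnni2, −0.04 ± 0.576 for the fast troponin C Tnnc2 and −0.08 ± 0.513 for the myosin Myh1. The list as a whole had mean scores of −0.07 and −0.32 in double-null and 0.38 and 0.35 in pRb-null arrays, against 0.26 and 0.14 in p53-null and −0.49 and −0.25 in control arrays, so the sides overlapped. Its median was 0.13, 0.23, 0.25 and 0.30 without control replicate 1, pRb-null replicate 2, double-null replicate 1 and p53-null replicate 2. Without control replicate 2 or without double-null replicate 2, and with array medians set to 0, 5 members were lower in all 4 arrays. The part of the amount of muscle in each pool was not tested.

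Among developmental signalling and matrix genes, some were lower in all 4 pRb-deficient arrays. Of 41 Wnt, Hedgehog and Notch genes, 4 (9.76%) were lower in all 4 pRb-deficient arrays, against 2.27% of all genes, and 2 (4.88%) were higher, against 3.06%. Sfrp2, a secreted modulator of Wnt signalling from dermal fibroblasts, scored −0.51 and −0.55 in double-null and −1.10 and −1.27 in pRb-null arrays, against 1.29 and 1.17 in p53-null and 0.69 and 0.29 in control arrays. The pRb-null arrays were lowest, and the difference was −1.72 ± 0.112 (SE, adjusted p = 0.063). Wnt5a, a Wnt ligand, scored −0.59 and −1.65 in double-null and −0.59 and −0.45 in pRb-null arrays, against 1.47 and 0.33 in p53-null and 0.76 and 0.72 in control arrays (−1.64 ± 0.392, adjusted p = 0.28). Its further probe set, at −0.54, overlapped. The Wnt mediator Ctnnb1 differed by −1.34 ± 0.476 (SE, adjusted p = 0.39), but 1 of its 2 further probe sets had the opposite sign, and Gli2 (−1.57 ± 0.379), a Hedgehog transcription factor, completes the 4. Fzd4 and Notch2 (1.39 ± 0.382) were the higher ones, and a further probe set of Notch2 had the opposite sign. The list's median of −0.24 was −0.08, −0.12 and −0.36 without double-null replicate 1, control replicate 2 and control replicate 1. Of 30 dermal fibroblast and collagen genes, 3 (10%, against 2.27% of all genes) were lower and 0 higher (against 3.06%). The lower ones were the collagen chains Col6a3 (−1.57 ± 0.469, adjusted p = 0.33) and Col1a2 (−1.40 ± 0.602, adjusted p = 0.45) and the microfibril protein Fbn2 (−1.50 ± 0.158, adjusted p = 0.11), which is made mostly before birth. The further probe set of Col1a2 had the opposite sign, at 0.40. Over the whole fibroblast and collagen list, 15 members had a positive and 15 a negative difference. Before adjustment, 4 had p under 0.05 with a positive (over all genes 6.88%) and 5 with a negative difference (over all genes 5.92%). The median of that list was −0.11, and −0.20 to 0.04 with 1 array left out, being above 0 without control replicate 1, double-null replicate 2 or pRb-null replicate 1. Of 21 endothelial genes, 3 (14.3%, against 3.06% of all genes) were higher and 1 (4.76%, against 2.27%) lower, with a median of 0.21 beside 0.11 over all genes, and the list's mean scores overlapped between the sides. The higher ones were Vwf (1.58 ± 0.494, adjusted p = 0.35), Cldn5 (1.57 ± 0.193, adjusted p = 0.12) and Pecam1 (1.55 ± 0.241, adjusted p = 0.16). Flt1, a VEGF receptor (−1.17 ± 0.534), was lower, with further probe sets at −0.29 and 0.84 that overlapped.

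Ribosomal protein genes had the largest share of separated members on the lower side among the lists of 10 or more genes. Of 42, 5 (11.9%, against 2.27% of all genes) were lower in all 4 pRb-deficient arrays and 1 (2.38%, against 3.06%) higher. On the lower side 11 had an unadjusted p under 0.05 (over all genes 5.92%) and on the higher side 0 (over all genes 6.88%), and the median difference was −0.50. With array medians set to 0, 8 members were lower in all 4 arrays, and likewise 8 without control replicate 2 or without pRb-null replicate 2. Rps28 scored −0.58 and −0.89 in double-null and −1.39 and −0.46 in pRb-null arrays, against 0.41 and 1.05 in p53-null and 1.54 and 0.32 in control arrays (−1.66 ± 0.423, adjusted p = 0.3). Rpl39 (−1.54 ± 0.289, adjusted p = 0.2), Rps25 (−1.49 ± 0.234, adjusted p = 0.16), Rps14 (−1.54 ± 0.466, adjusted p = 0.34) and Rpl37a (−1.48 ± 0.103) were the others, and Rps10 (1.40 ± 0.515) was the higher one, with further probe sets that did not all share its sign. The family has many near-identical pseudogenes, so single members are uncertain. Its mean scores were −0.58 and −0.19 in double-null and −0.09 and −0.02 in pRb-null arrays, against −0.07 and 0.26 in p53-null and 0.40 and 0.29 in control arrays, which overlapped by a small margin. Of 74 oxidative phosphorylation genes, 5 (6.76%, against 3.06% of all genes) were higher and 1 (1.35%, against 2.27%) lower, with Ndufa10 (1.33 ± 0.632, adjusted p = 0.48) and the muscle isoforms Cox6a2 (1.39 ± 0.589, adjusted p = 0.44) and Cox7a1 (1.54 ± 0.288, adjusted p = 0.2) among the higher ones.

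Many hair follicle genes had a small p and few separated the sides. Of 46 members, 31 had an unadjusted p under 0.05 on the lower side (over all genes 5.92%) and 0 on the higher side (over all genes 6.88%), and Gprc5d among them passed the test. Only Krtap5-1 (2.17%, near the 2.27% of all genes) was lower in all 4 arrays, with scores of −0.82 and −0.92 in double-null and −1.59 and 0.20 in pRb-null arrays, against 1.35 and 0.56 in p53-null and 0.44 and 0.77 in control arrays. It belongs to a family of similar genes and is uncertain, as is every Krtap member. The list's mean scores were −1.14 and −0.78 in double-null and 0.50 and 0.45 in pRb-null arrays, against −0.39 and −0.38 in p53-null and 0.80 and 0.94 in control arrays. Within each p53 status the pRb-deficient arrays were lower, while the median over the list was −1.69 for p53-deficient minus p53-intact arrays, and the sides overlapped. The median was −0.74 for double-null minus p53-null and −0.45 for pRb-null minus control, and 35 of 46 members were lower in both, where 25.4% of all genes were.

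**Figure D4:**
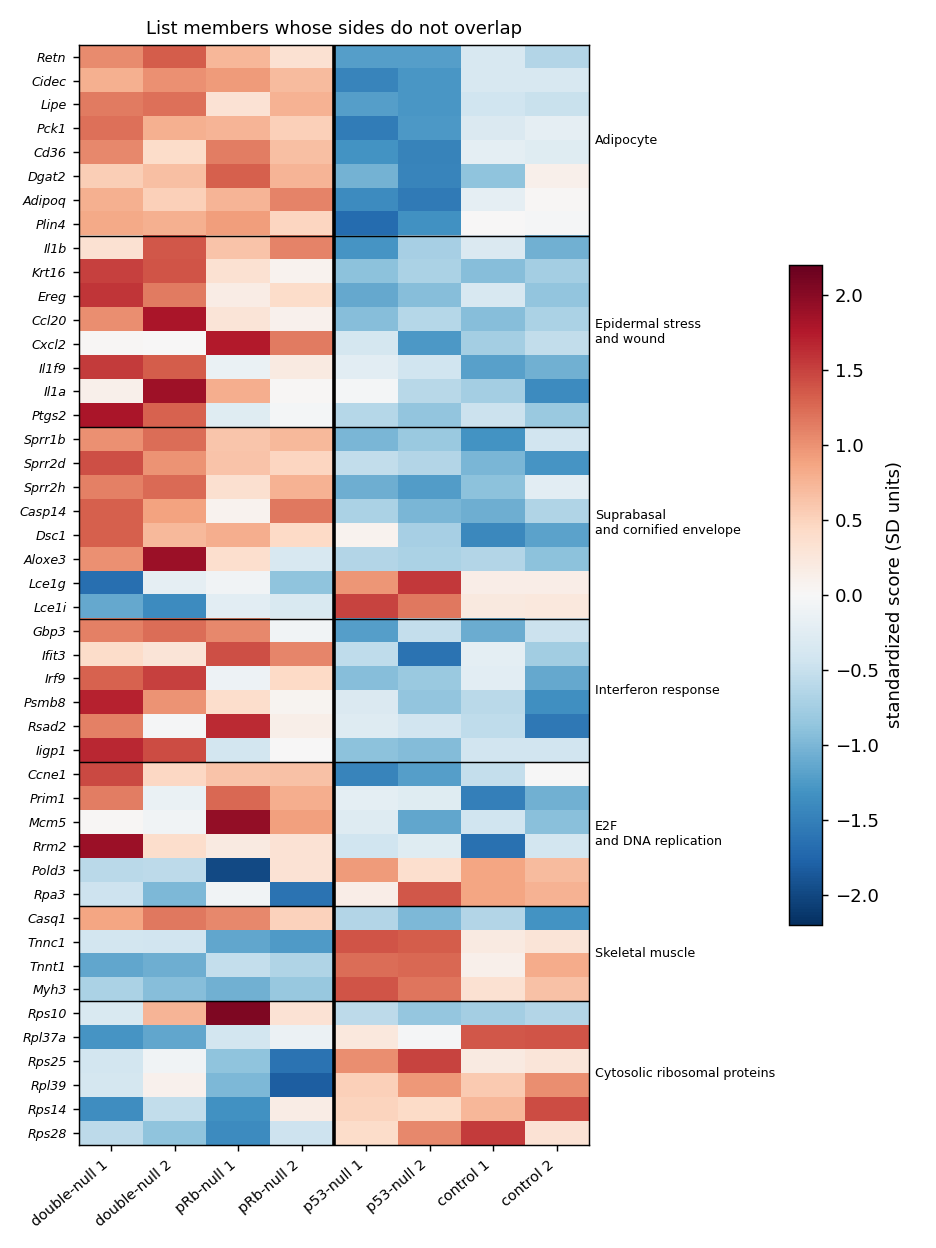
Standardized scores (colour) of the members of 7 lists that separated the sides (rows) in the 8 arrays (columns, pRb-deficient left of the line). Within the adipocyte block the p53-null columns are the lowest, in the wound block Krt16, Ccl20, Ereg, Ptgs2 and Il1f9 are highest in the double-null columns, and in the muscle block Casq1 runs against Tnnc1, Tnnt1 and Myh3.

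Whether the lack of pRb acted alike with and without p53 was asked by setting double-null minus p53-null against pRb-null minus control. Across the 12394 genes, the 2 differences had r = 0.093 and the same sign in 6780 genes (54.7%). Genes are not independent replicates, and both differences of a gene come from a row scaled over the same 8 arrays. The interaction test called 0 genes by limma's ordinary test and 0 by its moderated test, with a smallest adjusted p of 0.085, and 1214 genes (9.8%) had an unadjusted p under 0.05. Without either control array or either double-null array it called 1 gene. The genes with the smallest p were Slurp1, Fscn1, Ptprf, Bbox1 and Agpat5, each with an adjusted p of 0.085. Bbox1, the last enzyme of carnitine synthesis, scored 1.63 and 1.49 in double-null and −0.61 and −0.67 in pRb-null arrays, against −0.82 and −0.75 in p53-null and −0.24 and −0.03 in control arrays, high only in double-null arrays. Fscn1, an actin-bundling protein, scored −0.12 and −0.06 in double-null and 0.37 and 0.62 in pRb-null arrays, against 1.08 and 1.03 in p53-null and −1.47 and −1.44 in control arrays, low in control and high in p53-null arrays, while 1 of its 3 further probe sets separated the sides as lower. Ptprf, a receptor phosphatase, scored 0.11 and 0.15 in double-null and 1.09 and 1.09 in pRb-null arrays, against 0.26 and 0.27 in p53-null and −1.61 and −1.36 in control arrays, with only the control arrays low, and 1 of its 2 further probe sets had the opposite sign. By the same overlap rule, 689 genes (5.56%) were higher and 1011 (8.16%) lower in all 4 p53-deficient arrays against the 4 p53-intact arrays, 1700 in all beside the 660 for pRb. That difference between the counts was not tested.

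**Figure D5:**
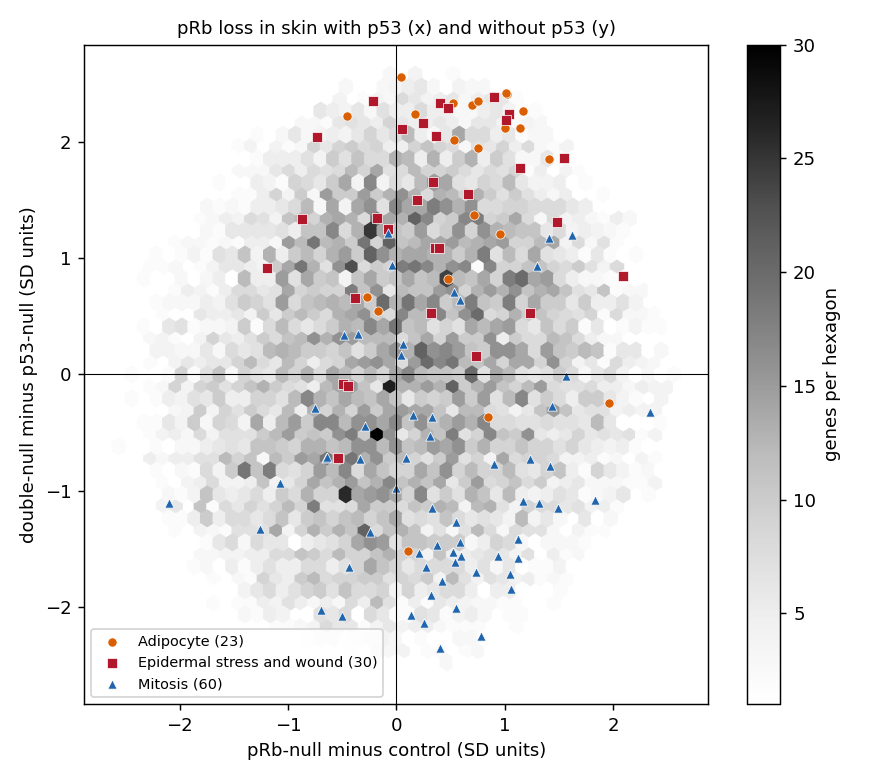
Difference made by pRb loss in skin with p53 (x axis, pRb-null minus control) against skin without p53 (y axis, double-null minus p53-null), in SD units, with all 12394 genes as grey hexagons and 3 lists as points. Adipocyte and wound genes sit mostly in the upper right, with larger values on the y axis, and mitosis genes mostly lie below the horizontal line.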

How the data were processed

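Pooled whole-skin RNA was measured on 8 microarrays of 22690 probe sets. RMA, without a version, is the only tool named, per the submitters' processing notes. The deposited values are scores: in all 22690 rows the mean is 0 and the SD 1 over the 8 arrays within 1e-06, so neither levels nor a filter on dim genes exist, and precision is limited by the number of arrays. Nothing says that the arrays of a genotype came from separate pools, so p-values reflect only how far these arrays differ, and that spread may be technical.

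Symbols came from the platform annotation and were matched by Entrez number to RefSeq (GRCm38.p6). A single symbol was listed for 20393 probe sets (20364 matched), several for 691 and none for 1606. Probe sets with 1 symbol gave 12394 genes, 4958 with several probe sets. The one used was chosen by suffix (_at before _a_at, _s_at, _x_at), then by lowest identifier.

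limma 3.58.1 in R 4.3.3 fitted 1 mean per genotype (4 residual degrees of freedom). The contrast was the mean of the pRb-deficient genotypes minus that of the pRb-intact ones, tested two-sided without moderation, since standardized rows tie variances together, and adjusted by Benjamini-Hochberg over all genes. Genes were called at an adjusted p under 0.05. Fits were tested on simulated data. The 27 lists were described by counts and medians, with no set test. Members, lists and the unmoderated test were chosen with earlier results of these data known.

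Named genes were Rb1, the 10 widest gaps in each direction among genes whose probe sets had the same sign, the 5 widest per direction among genes with every probe set separated, every called gene, up to 4 separated members per list or the member with the smallest p, and the 5 smallest interaction p. Members named to complete a count were chosen after their values were seen. Alternatives were quantile normalization, array medians set to 0, moderation, an additive model, 2 groups of 4 arrays, the replicate block, array weights, the mean of probe sets, every probe set and leaving out each array. Tables and plots used Python 3.11.15, pandas 2.3.3 and matplotlib 3.10.9. Trp53 was not analysed here.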

Additional observations from a re-analysis of the deposited data

Results flagged for a closer look

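Within each side of 4 arrays, the highest or lowest array of the 100 named genes was compared with the next one. In 7 of 200 sides its distance, as a share of the side's range, exceeded Dixon's critical value. The rate of about 1 in 20 that goes with that value assumes 4 arrays of a single population. Each side here mixes 2 genotypes, and most of the genes were named from these same values, so that rate does not apply. Rrm2 was marked on both sides, by double-null replicate 1 at 1.89 and control replicate 1 at −1.65. Bub1b was marked by pRb-null replicate 1 at −1.31 and Wnt5a by double-null replicate 2 at −1.65. Gbp3 had pRb-null replicate 2 far below its side at −0.08. Cox7a1 had control replicate 2 above its side at 0.04, and Xist had control replicate 2 below its side at −0.23.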

How the results depend on the processing

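The count of called genes (6) was 0 with 2 groups of 4 arrays, with the moderated test and with the replicate block, 1 with array weights and with every probe set, 2 with the additive model, 12 with the mean of probe sets and 0 to 2 with an array left out, when 0 of the 6 were kept. The mean of probe sets kept all 6, but each of these was read by 1 probe set, so that setting left their values unchanged. Quantile normalization called 7 and array medians set to 0 called 5, with 1 and 2 genes shared. Differences between replicates 1 and 2 correlated across genotypes at r from −0.16 to 0.20. Whether the replicate numbers mark anything shared between genotypes was not tested. The interaction count was 0 to 1 with an array left out. Separated genes numbered 649 higher and 547 lower over every probe set. With an array left out, which by construction can only add genes, they numbered 504 to 760 higher and 386 to 532 lower, highest without double-null replicate 1 and pRb-null replicate 2. The same holds for list members: 8 to 12 adipocyte, 8 to 11 wound, 6 to 12 interferon, 6 to 9 cornified and 4 to 7 replication genes higher, and 5 to 8 ribosomal and 3 to 5 muscle genes lower, the replication count being 7 without pRb-null replicate 1 or either p53-null array and the muscle count 5 without control replicate 2 or double-null replicate 2. With array medians set to 0 the wound list had 5, the ribosomal list 8 and the muscle list 5 separated members. List medians moved by more than the spread between replicates in 22 repeats and by less in 410. Quantile normalization gave 0.82 for the wound list and the mean of probe sets 0.06 for basal genes. With an array left out, medians ran from −0.55 to −0.03 for pocket proteins and G1 genes, −0.88 to 0.04 for basal genes, 0.13 to 0.52 for muscle, 1.23 to 1.48 for adipocyte, −0.17 to 0.22 for mast cell, −0.56 to −0.17 for melanocyte, 0.87 to 1.36 for MHC class II, −0.43 to 0.43 for red blood cell, −0.24 to 0.25 for sebaceous, −0.28 to 0.25 for junction and −0.01 to 0.56 for apoptosis genes. The differences of Trp63 (0.09) and Fscn1 (−0.43) changed sign with the mean of probe sets, whose further probe sets disagree. No other named gene changed sign under the settings run.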

Other observations

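Lists not described above had at most 2 separated genes in either direction. Over all genes, 3.06% were higher and 2.27% lower in all 4 pRb-deficient arrays. Of 14 mast cell genes 0 separated the sides, with a median of −0.05, and the protease Cma1 had the smallest p (−0.61 ± 0.113, adjusted p = 0.2). Among 35 immediate early genes, which respond within minutes to stress, 2 (5.71%, against 3.06% of all genes) were higher in all 4 pRb-deficient arrays, Klf6 (1.59 ± 0.397, adjusted p = 0.29) and Nr4a1 (1.65 ± 0.189, adjusted p = 0.11), and before adjustment 12 had p under 0.05 with a positive (over all genes 6.88%) and 0 with a negative difference. The list's median was 1.26 for double-null minus p53-null and −0.04 for pRb-null minus control. Of 14 melanocyte genes, Rab27a (1.58 ± 0.245, adjusted p = 0.16) was higher and Dct (−1.17 ± 0.128, adjusted p = 0.11) lower (7.14% each way), in an albino strain. The 2 further probe sets of Rab27a, at 0.63 and 1.29, overlapped. Dct separated the sides by a gap of 0.003 and was low in double-null arrays alone. Of 29 apoptosis genes, Pmaip1 and Casp8 (1.61 ± 0.454, adjusted p = 0.32) were higher (6.9%) and Bak1 (−1.64 ± 0.391, adjusted p = 0.28) lower (3.45%). The further probe set of Bak1 was at 0.24, the opposite sign. The junction list gave Dsc1 higher and Ctnnb1 lower of 24 (4.17% each way). Of 13 red blood cell genes, Alas2 (−1.21 ± 0.412, adjusted p = 0.37) was lower (7.69%). Nerve genes (16 members, smallest p in S100b, 1.31 ± 0.292, adjusted p = 0.25) and sebaceous and sterol genes (21 members, smallest p in Elovl3, −0.70 ± 0.207, adjusted p = 0.33) had 0.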
